A study of Mus musculus with 4 samples.

Results

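The 9 genes described here encode enzymes and 1 helper protein that turn arachidonic acid into prostaglandins and leukotrienes, or that clear prostaglandins: Ptgs1, Ptgs2, Hpgds, Ptgds, Ptges, Hpgd, Alox5, Alox5ap and Ltc4s. They were picked by name, as a pathway, from the 41862 gene columns of the deposited tables, with earlier results of these data known, so their levels are given as a description. They were followed in 4 single-cell libraries from C57BL6 mice that carried Aldh1l1CreERT2 and a TdTomato reporter, a tamoxifen-driven Cre under an astrocyte promoter. All 4 libraries held cells sorted as TdTomato+ and LAMP1+, and the sort for TRAIL, a death receptor ligand of the TNF family, divided them further. The 4 groups were TRAIL+ cells of mice with induced EAE, TRAIL- cells of mice with induced EAE, TRAIL+ cells of naive mice and TRAIL- cells of naive mice. EAE, experimental autoimmune encephalomyelitis, is a T cell driven inflammation of the central nervous system, induced here with 150 µg of a myelin peptide in complete adjuvant per mouse. The labels name 3 naive and 3 EAE mice, do not say how animals were pooled, and call all cells astrocytes. Each group was 1 library, so no difference below has a replicate check or a test, and every interval covers counting error only.

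Arachidonic acid is freed from membrane lipids by phospholipases and monoacylglycerol lipase. The cyclooxygenases encoded by Ptgs1 and Ptgs2 turn it into prostaglandin H2, from which terminal synthases make prostaglandin D2, prostaglandin E2, prostacyclin or thromboxane, and 15-hydroxyprostaglandin dehydrogenase, encoded by Hpgd, starts the breakdown of the products. In the other branch, 5-lipoxygenase and its activating protein make leukotriene A4, which leukotriene C4 synthase joins to glutathione. In the brain, Ptgs1 is known as a microglial gene, Ptgs2 as an inducible one, and Ptgds as a product of oligodendrocytes, choroid plexus and leptomeninges.

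The promoters of 8 of the 9 genes were matched in RefSeq's table for the mouse build GRCm38.p6, and Alox5ap was not among them. Of the genes counted mainly in microglia-like cells, Ptgs1, Hpgds and Ltc4s are shown because their windows hold GGAAGT, a motif read by ETS-family factors such as PU.1, in capitals; the windows of Hpgd and Alox5 do not hold it. Hpgd, which was lower in EAE than in naive microglia-like cells in both sorts, has TATAAA in capitals, and Ptgs2, the inducible cyclooxygenase, has ACGTCA, a part of the cAMP response element, overlapping CACGTG, an E-box, both in capitals. Each sequence runs 5′ to 3′ on the gene's own strand, from 250 bases before to 50 after the annotated start.
Ptgs1 (chr2:36230176-36230475, + strand): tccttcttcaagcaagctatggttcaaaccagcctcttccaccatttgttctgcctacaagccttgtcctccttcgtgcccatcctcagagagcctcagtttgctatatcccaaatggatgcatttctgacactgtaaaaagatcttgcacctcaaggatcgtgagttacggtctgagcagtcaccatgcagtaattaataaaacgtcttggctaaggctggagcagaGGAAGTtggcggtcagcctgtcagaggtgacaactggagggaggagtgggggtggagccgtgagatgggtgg
Hpgds (chr6:65144681-65144980, - strand): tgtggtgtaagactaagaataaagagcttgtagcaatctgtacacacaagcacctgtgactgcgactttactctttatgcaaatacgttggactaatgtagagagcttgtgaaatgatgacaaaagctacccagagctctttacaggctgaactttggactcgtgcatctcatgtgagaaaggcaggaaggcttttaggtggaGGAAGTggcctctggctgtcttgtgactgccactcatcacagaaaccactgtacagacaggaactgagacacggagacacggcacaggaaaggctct
Ltc4s (chr11:50238483-50238782, - strand): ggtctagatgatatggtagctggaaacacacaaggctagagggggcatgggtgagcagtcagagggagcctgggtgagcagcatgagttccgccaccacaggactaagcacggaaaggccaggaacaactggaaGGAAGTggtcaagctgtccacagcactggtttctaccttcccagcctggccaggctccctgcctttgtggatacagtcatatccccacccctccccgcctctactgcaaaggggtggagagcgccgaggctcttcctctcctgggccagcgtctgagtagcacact
Hpgd (chr8:56294302-56294601, + strand): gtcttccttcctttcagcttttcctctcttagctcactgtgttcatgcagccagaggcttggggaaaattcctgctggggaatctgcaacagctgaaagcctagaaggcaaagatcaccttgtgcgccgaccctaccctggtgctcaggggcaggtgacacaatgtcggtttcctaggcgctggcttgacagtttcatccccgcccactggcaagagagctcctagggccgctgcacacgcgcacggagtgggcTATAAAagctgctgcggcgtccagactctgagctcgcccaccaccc
Ptgs2 (chr1:150099781-150100080, + strand): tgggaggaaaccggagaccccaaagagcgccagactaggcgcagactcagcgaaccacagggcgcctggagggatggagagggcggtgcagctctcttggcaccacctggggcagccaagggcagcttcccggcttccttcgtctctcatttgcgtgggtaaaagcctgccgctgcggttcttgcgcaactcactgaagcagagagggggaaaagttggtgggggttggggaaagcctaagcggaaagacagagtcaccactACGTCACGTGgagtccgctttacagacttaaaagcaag
GGAAGT began 22 bases before the start in Ptgs1, 47 before it in Hpgds and 116 before it in Ltc4s, and it stood on either strand in 23.8% of 32851 promoters of this length. TATAAA began at base 4 after the RefSeq start in Hpgd and occurred in 13.6% of promoters. In the gene annotation used for positions, the starts of Hpgds, Hpgd and Ltc4s differ from the RefSeq ones. That of Hpgd, at 56294585, lies after the TATAAA match. That of Hpgds, at 65144908 on the - strand, lies before the GGAAGT match, which by that annotation falls within the gene. That of Ltc4s, at 50238616 on the - strand, lies after its GGAAGT match. ACGTCA began at base 12 after the start in Ptgs2 and occurred in 7.51% of promoters, and CACGTG, at base 16, in 7.15%. These matches describe the letters of the windows and say nothing of binding in these cells. The other 4 genes lie, on the same build, at chr2:25466709-25470046 on the - strand (Ptgds), chr2:30889471-30929863 on the - strand (Ptges), chr6:116410077-116461178 on the - strand (Alox5) and chr5:149264767-149288153 on the + strand (Alox5ap).

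The rule kept barcodes with at least 500 UMIs, of which at most 20% came from mitochondrial genes: 1814 in the EAE TRAIL+ library, 1597 in EAE TRAIL-, 2229 in naive TRAIL+ and 2259 in naive TRAIL-. After removal of 77 called doublets, 7822 cells with 2483010 to 3743804 UMIs per library remained. Against the label, astrocyte-like cells made up 0.497% of the EAE TRAIL+ library, 0.191% of EAE TRAIL-, 6.52% of naive TRAIL+ and 1.53% of naive TRAIL-. Microglia-like cells made up 89.2% of EAE TRAIL+ and 82.0% of naive TRAIL+, but 19.1% of EAE TRAIL- and 14.2% of naive TRAIL-. Most of their clusters had P2ry12 among their leading genes against all other cells. The cluster led by C4b, with 776 EAE TRAIL+ and 202 EAE TRAIL- cells, did not. It was named only in a second ranking, against cells outside the other microglia-like clusters. There Tmem119 and C1qa were among its leading genes. The TRAIL- libraries were led by endothelial-like cells (494 in EAE and 1144 in naive) and pericyte-like cells (453 in EAE and 501 in naive). The EAE libraries also stood apart from the naive ones in sex-linked genes: Xist had 1141 and 1292 CPM (UMIs of the gene per 1e6 UMIs) in the microglia-like cells of EAE TRAIL+ and EAE TRAIL-, against 8.66 and 12 CPM in naive TRAIL+ and naive TRAIL-, and 4 Y-linked genes together had 21.3 and 20.4 CPM in EAE against 262 and 236 CPM in naive. Sex and disease cannot be told apart in any EAE to naive difference below.

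Most UMIs of Ptgs1, Hpgds, Hpgd and Ltc4s lay in microglia-like cells. Of all UMIs of Ptgs1 in a library, 94.3 to 97.1% came from microglia-like cells, and of Hpgds 82.8 to 96.6%, of Hpgd 86.7 to 95.3% and of Ltc4s 66.96 to 96.2%. Ptgs2 and Alox5ap were shared with monocyte- and macrophage-like cells in EAE, more so in the TRAIL- library. Sharing of Alox5ap was not limited to EAE. In naive TRAIL- this class held 40 of 179 Alox5ap UMIs, at 781 CPM, its highest level in the class. In naive TRAIL+ it held 83 of 1061, at 366 CPM. In EAE TRAIL+ microglia-like cells held 81.9% of Ptgs2 UMIs and 81.3% of Alox5ap UMIs. In EAE TRAIL- microglia-like cells held 43.6% of Ptgs2 UMIs and 35.2% of Alox5ap UMIs, and monocyte- or macrophage-like cells held 47.3% and 63.8%. Ptgds lay outside microglia-like cells, which held 0.103 to 2.93% of its UMIs. Ptges was scarce, with 166 UMIs over the 4 libraries, and in the TRAIL- libraries most of them lay in pericyte-like (48.1% in EAE, 37.1% in naive) and endothelial-like cells (24.7% in EAE, 52.9% in naive).

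**Figure D1:**
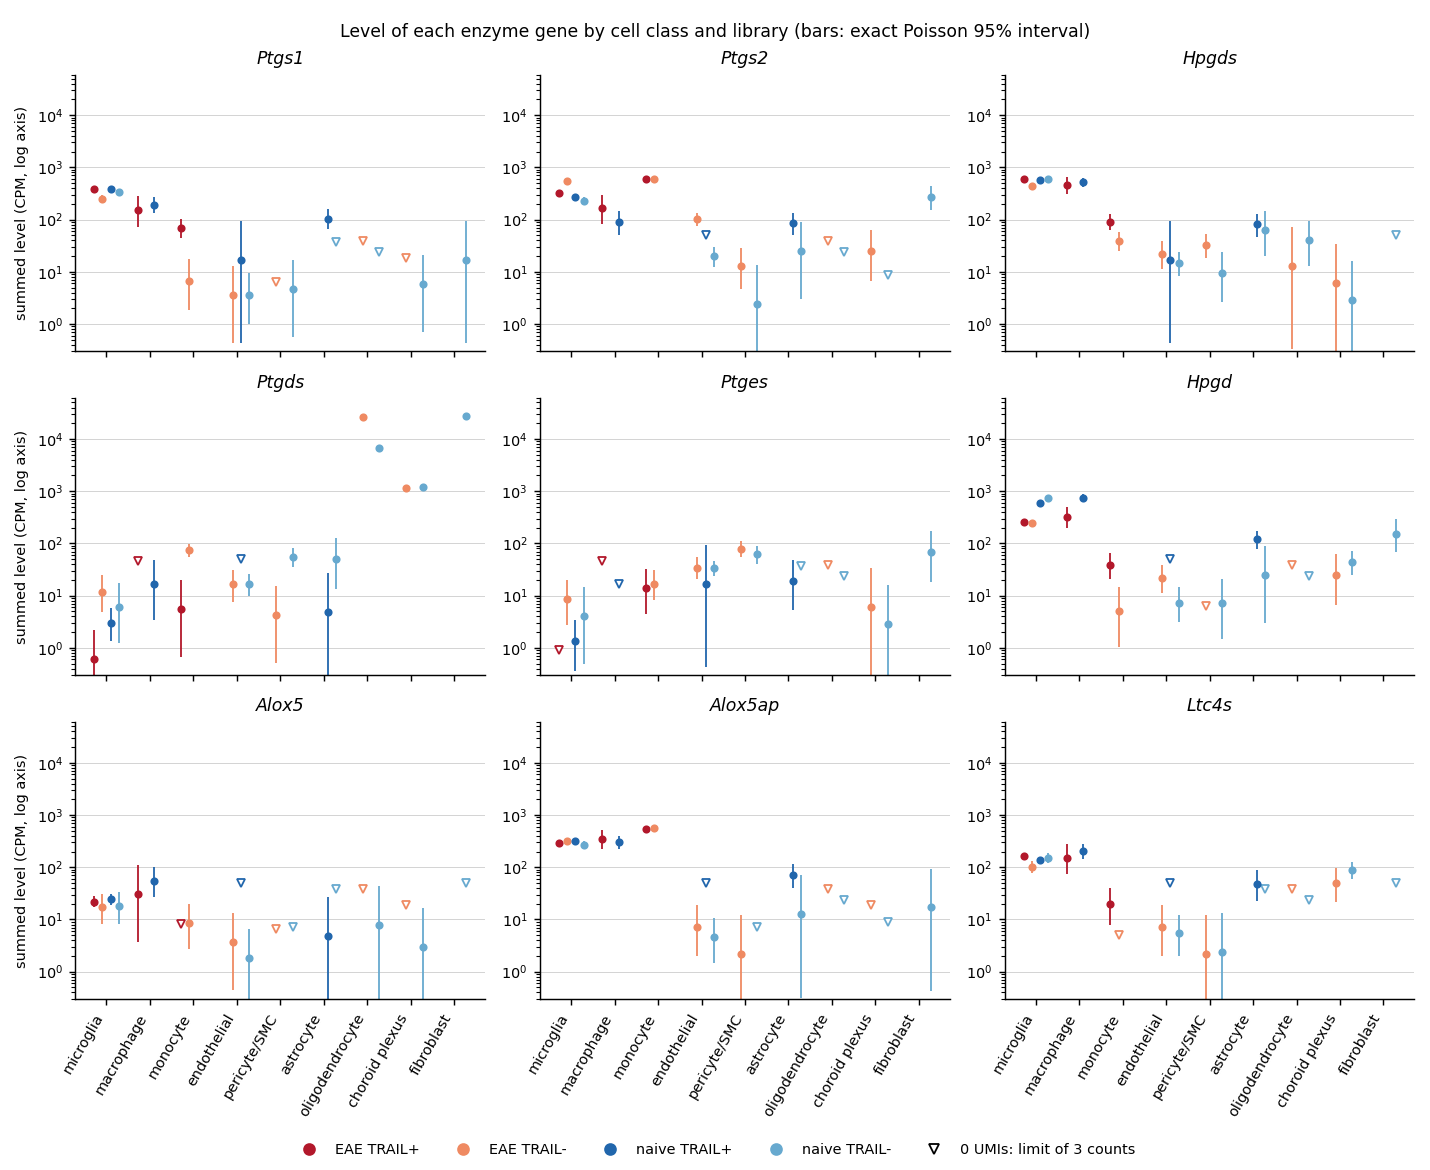
Summed level of each of the 9 genes in CPM, on a log axis, by cell class and library, for classes with at least 20 cells in the library; the error bars are exact Poisson 95% intervals, which cover counting error only. Open triangles mark 0 UMIs at the limit of 3 counts. Ptgs1 and Hpgds stand highest in microglia-like cells, Hpgd in microglia-like and macrophage-like cells, and Ptgds in oligodendrocyte-like and fibroblast-like cells.

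**Figure D2:**
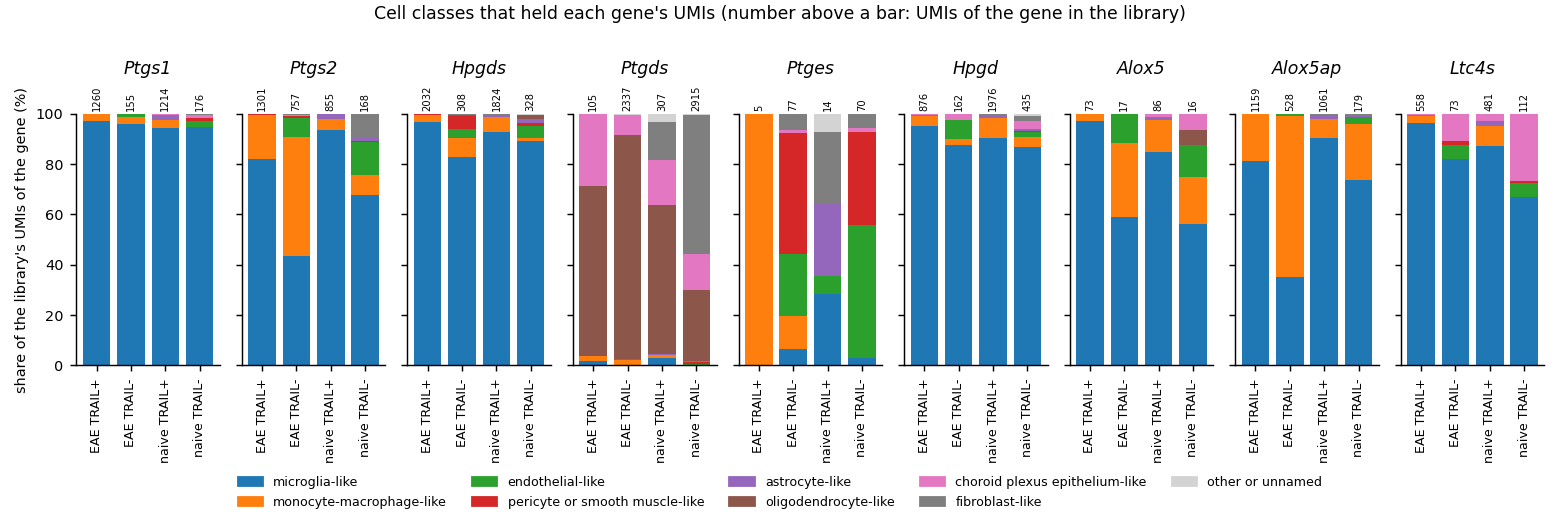
Share of each gene's UMIs (percent of the library's UMIs of that gene) that fell in each cell class, by library. Microglia-like cells held 94.3 to 97.1% of Ptgs1 UMIs in the 4 libraries, while Ptgds in the EAE TRAIL- library lay in oligodendrocyte-like cells (89.1%).

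The cyclooxygenase genes come first in the pathway. Ptgs1, the constitutive cyclooxygenase, had 377 CPM (interval 357 to 399) in EAE TRAIL+ microglia-like cells, 253 CPM (214 to 297) in EAE TRAIL-, 381 CPM (359 to 404) in naive TRAIL+ and 334 CPM (285 to 389) in naive TRAIL-. It thus stood at a like level in both TRAIL+ libraries, with an EAE to naive ratio of 0.99 (0.912 to 1.07), and lowest in EAE TRAIL-, where the ratio to naive TRAIL- was 0.757 (0.603 to 0.95). With every cell thinned to 500 UMIs, 16.6% of EAE TRAIL+, 9.33% of EAE TRAIL-, 16.7% of naive TRAIL+ and 13.1% of naive TRAIL- microglia-like cells had a Ptgs1 UMI; unthinned, 620 of 1614 EAE TRAIL+ cells and 697 of 1824 naive TRAIL+ cells had one. Pericyte-like cells, which should lack it, had one in 0 of 453 EAE TRAIL- cells, with an exact upper bound of 0.811%, and in 0.399% of 501 naive TRAIL- cells after thinning.

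Ptgs2, the inducible cyclooxygenase, had 329 CPM (309 to 349) in EAE TRAIL+ microglia-like cells, 560.1 CPM (501 to 624) in EAE TRAIL-, 266 CPM (248 to 285) in naive TRAIL+ and 228 CPM (188 to 274) in naive TRAIL-. It was highest in the EAE TRAIL- library by a margin that left the other 3 intervals well below. The EAE to naive ratio was 2.46 (1.98 to 3.07) among TRAIL- and 1.24 (1.13 to 1.36) among TRAIL+ cells. The TRAIL+ ratio became 1.10 with TMM scaling, and 0.927, below 1, with the finer clustering described below. Unlike Ptgs1, Ptgs2 sat in few cells with many copies each. In EAE TRAIL+ its 1066 UMIs lay in 290 of 1614 cells, and the 78 cells with at least 5 UMIs held 62.8% of them. In EAE TRAIL- 330 UMIs lay in 64 of 300 cells, 27 of which held 78.8%. The corresponding share for Ptgs1, in cells with at least 5 UMIs, was 20.7% in EAE TRAIL+ and 3.36% in EAE TRAIL-. After thinning, 8.67% of EAE TRAIL+, 13% of EAE TRAIL-, 7.95% of naive TRAIL+ and 7.96% of naive TRAIL- cells had a Ptgs2 UMI.

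The microglia-like cells fell into 3 clusters, and the libraries were spread over them unequally. The cluster led by C4b, Hcar2, Cd74 and Ccl12, among them genes of complement, antigen presentation and chemotaxis, also had Xist among its leading genes and held 776 of the EAE TRAIL+ cells and 202 of the EAE TRAIL- cells, against 39 naive TRAIL+ and 9 naive TRAIL- cells. The other clusters, led by Fcrls, Nav3 and P2ry12 and by Gpr34, P2ry12 and Fscn1, held 451 and 387 EAE TRAIL+, 34 and 64 EAE TRAIL-, 757 and 1028 naive TRAIL+, and 105 and 200 naive TRAIL- cells. In the C4b cluster Ptgs2 had 390.4 CPM in EAE TRAIL+ cells and 648 CPM in EAE TRAIL- cells, against 302 CPM in naive TRAIL+ cells. Its TRAIL+ ratio of EAE to naive was 1.29 (0.822 to 2.16) there, 1.11 (0.958 to 1.29) in the Fcrls cluster and 0.765 (0.613 to 0.948) in the Gpr34 cluster, so it lay below 1 in the last of these. In the Fcrls cluster its TRAIL- ratio of EAE to naive was 1.34 (0.843 to 2.08), and in the Gpr34 cluster 1.49 (0.86 to 2.52). Both intervals include 1 and both ratios are smaller than the 2.46 of the pooled cells; the C4b cluster could not be compared among TRAIL- cells, with 9 naive ones.

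Hpgds, the hematopoietic prostaglandin D2 synthase, had 605 CPM (579 to 633) in EAE TRAIL+ microglia-like cells, 433 CPM (381 to 489) in EAE TRAIL-, 564 CPM (538 to 592) in naive TRAIL+ and 586 CPM (521 to 657) in naive TRAIL-. EAE TRAIL- was the lowest library and the other 3 lay close together. The EAE to naive ratio was 1.07 (1.00 to 1.15) among TRAIL+ cells, which becomes 0.958 with TMM scaling and 0.995 with median-of-ratios scaling, and 0.738 (0.622 to 0.876) among TRAIL- cells. A UMI of Hpgds was present in 801 of 1614 EAE TRAIL+ cells, 100 of 300 EAE TRAIL-, 836 of 1824 naive TRAIL+ and 128 of 314 naive TRAIL- cells. In thinned cells those shares were 22.1%, 16.3%, 21.8% and 21.0%, against 1.32% of EAE TRAIL- and 0.2% of naive TRAIL- pericyte-like cells. Median UMIs before thinning were 1895.5 in EAE TRAIL- and 1542.5 in naive TRAIL- microglia-like cells, and 961 and 791 in pericyte-like cells.

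Hpgd, which inactivates prostaglandins by oxidising their 15-hydroxyl group, had the lowest EAE to naive ratio in microglia-like cells among the genes with at least 20 UMIs over both libraries (7 of the 9 in TRAIL+ and 6 in TRAIL-). It had 257 CPM (240.3 to 275) in EAE TRAIL+ and 241 CPM (203 to 284) in EAE TRAIL-, against 594 CPM (567 to 623) in naive TRAIL+ and 754 CPM (680 to 834) in naive TRAIL-. Both EAE libraries lay below both naive ones, with no overlap of intervals. The ratio was 0.433 (0.399 to 0.471) among TRAIL+ and 0.32 (0.262 to 0.389) among TRAIL- cells. In thinned cells a Hpgd UMI was present in 9.36% of EAE TRAIL+ and 7.67% of EAE TRAIL- cells, against 22% of naive TRAIL+ and 25.5% of naive TRAIL- cells. Unthinned, 415 of 1614 and 50 of 300 EAE cells had one, against 833 of 1824 and 144 of 314 naive cells.

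Within each of the 3 microglia-like clusters the EAE to naive ratio of Hpgd was below 1 among TRAIL+ cells. The C4b cluster had 173 CPM in EAE TRAIL+ against 254 CPM in naive TRAIL+ cells (16 UMIs), a ratio of 0.68 (0.412 to 1.21), whose interval includes 1. The Fcrls cluster had 349 CPM in EAE TRAIL+ against 608 CPM in naive TRAIL+, a ratio of 0.574 (0.507 to 0.649). The Gpr34 cluster had 339 CPM against 595 CPM, a ratio of 0.571 (0.485 to 0.669). Among TRAIL- cells the Gpr34 cluster had 315 CPM in EAE against 801 CPM in naive, a ratio of 0.394 (0.254 to 0.588), and the Fcrls cluster 607 CPM (34 cells) against 729 CPM, a ratio of 0.833 (0.586 to 1.16). In each of these 5 comparisons the ratio was nearer to 1 than in the pooled cells of the same sort, and in the TRAIL- Fcrls cluster it did not differ from 1 beyond counting error.

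**Figure D3:**
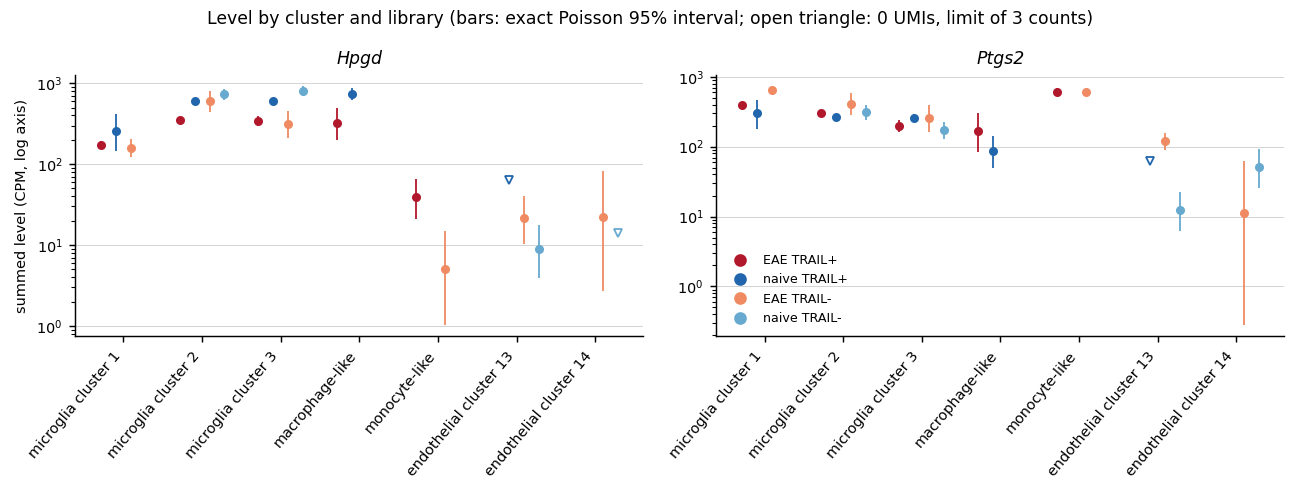
Level of Hpgd and Ptgs2 in CPM, on a log axis, by cluster and library, with exact Poisson 95% intervals and open triangles for 0 UMIs; microglia clusters 1, 2 and 3 are the C4b, Fcrls and Gpr34 clusters, endothelial clusters 13 and 14 the Itm2a and Gkn3 clusters, and groups with under 20 cells are left out. Hpgd is at 173 CPM in EAE TRAIL+ cells of the C4b cluster and between 595 and 801 CPM in naive cells of the Gpr34 cluster.

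In the leukotriene branch, Alox5, which encodes 5-lipoxygenase, was scarce: 71 UMIs in EAE TRAIL+ microglia-like cells, 10 in EAE TRAIL-, 73 in naive TRAIL+ and 9 in naive TRAIL-, or 21.9, 17.0, 24.3 and 18.0 CPM. Those 4 intervals overlapped, and the TRAIL+ ratio of EAE to naive was 0.901 (0.64 to 1.27). Alox5ap, which encodes the protein that presents arachidonic acid to 5-lipoxygenase, had 290.4 CPM (272 to 310) in EAE TRAIL+, 316 CPM (272 to 364) in EAE TRAIL-, 319 CPM (299 to 339) in naive TRAIL+ and 264 CPM (221 to 313) in naive TRAIL-. Of the 7 genes it had the smallest ratio of highest to lowest library, with EAE to naive ratios of 0.911 (0.832 to 0.998) in TRAIL+ and 1.20 (0.951 to 1.51) in TRAIL- cells. Ltc4s, leukotriene C4 synthase, had 166 CPM (152 to 180) in EAE TRAIL+, 102 CPM (77.7 to 131) in EAE TRAIL-, 140 CPM (126 to 154) in naive TRAIL+ and 150 CPM (118 to 188) in naive TRAIL-. As for Ptgs1 and Hpgds, EAE TRAIL- was the lowest library, with EAE to naive ratios of 1.19 (1.04 to 1.35) in TRAIL+ and 0.679 (0.475 to 0.966) in TRAIL- cells.

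**Figure D4:**
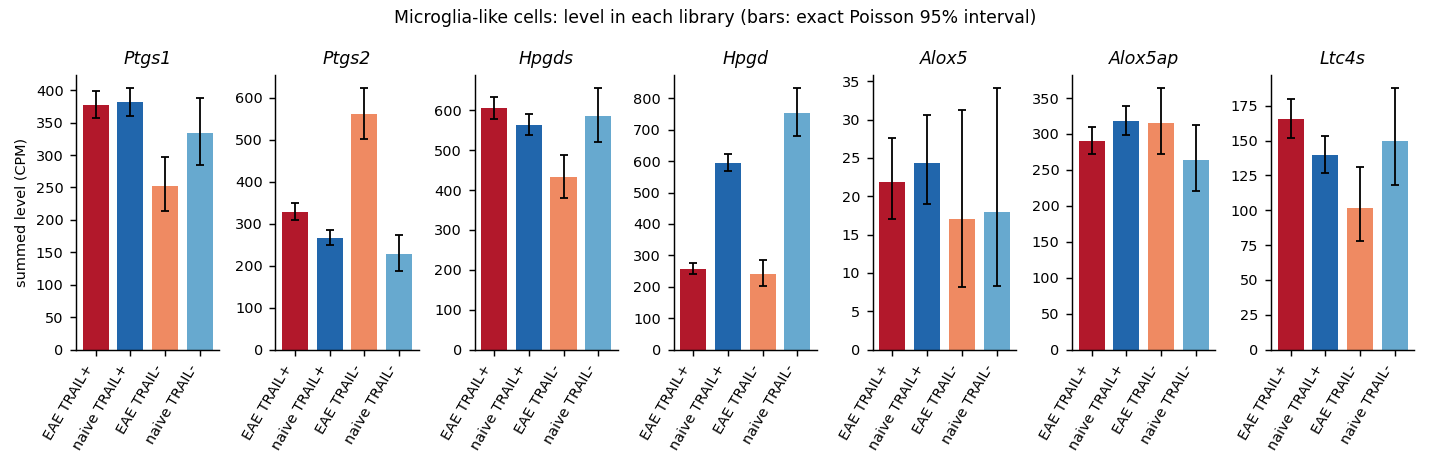
Level in CPM in microglia-like cells, by library, of the 7 genes other than Ptgds and Ptges, which had at most 9 UMIs in any library, with exact Poisson 95% intervals. Hpgd is lower in both EAE libraries (257 and 241 CPM) than in both naive ones (594 and 754 CPM), and Ptgs2 is highest in EAE TRAIL- (560.1 CPM).

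A gene was counted as apart between libraries at a ratio of 2 or more in either direction with at least 20 UMIs over both. In microglia-like cells, EAE TRAIL+ over naive TRAIL+, 7 of the 9 genes passed the minimum and Hpgd alone was apart, lower in EAE; 10.2% of all 12326 genes that passed were apart, and 1.78% of all were lower. A count of 1 in 7 is close to that background. For EAE TRAIL- over naive TRAIL-, 6 genes passed and 2 were apart, Ptgs2 higher and Hpgd lower, where 21.3% of 6746 genes were apart (11.5% higher, 9.84% lower). For EAE TRAIL+ over EAE TRAIL- and for naive TRAIL+ over naive TRAIL-, 7 genes passed and 0 were apart, where 14.7% and 12.9% of all genes were. The median log2 ratio of the genes that passed was -0.01, -0.42, 0.37 and 0.19 in these 4 comparisons, beside 0.10, -0.02, 0.04 and 0.00 over all genes. A finer clustering (Leiden resolution 2) named fewer cells microglia-like, mostly fewer EAE ones. It left 921 EAE TRAIL+ and 111 EAE TRAIL- cells, beside 1720 naive TRAIL+ and 294 naive TRAIL- cells. Under it 0 genes were apart between EAE and naive in either sort. The ratios for Hpgd were 0.557 in TRAIL+ and 0.575 in TRAIL- cells, and those for Ptgs2 were 0.927 in TRAIL+ and 1.61 in TRAIL- cells. The comparisons share libraries and are not independent of each other.

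Between the TRAIL sorts, microglia-like cells of EAE mice had more Ptgs1 in TRAIL+ than in TRAIL- (ratio 1.49, 1.26 to 1.78), more Hpgds (1.40, 1.23 to 1.60) and more Ltc4s (1.63, 1.24 to 2.16), and less Ptgs2 (0.587, 0.518 to 0.666). In naive mice the same ratios were 1.14 for Ptgs1, 0.963 for Hpgds, 0.93 (0.726 to 1.21) for Ltc4s and 1.17 for Ptgs2, and Hpgd was 0.788 (0.705 to 0.883). Within the C4b, Fcrls and Gpr34 clusters the EAE ratios of Ptgs1, Hpgds, Ltc4s and Ptgs2 kept their side of 1. For Ptgs2 they were 0.603 (0.523 to 0.697), 0.724 (0.502 to 1.08) and 0.779 (0.49 to 1.29). Intervals also included 1 for Ptgs1 in the Fcrls cluster, Hpgds in the Gpr34 cluster, and Ltc4s in the C4b and Gpr34 clusters. Immediate early genes, which can rise within minutes of cell handling, moved with these libraries: a list of 20 summed to 34485 CPM in EAE TRAIL+ and 24891 CPM in EAE TRAIL- microglia-like cells, against 46859 CPM in naive TRAIL+ and 47806 CPM in naive TRAIL-. The list of 12 monocyte markers summed to 659 and 816 CPM in EAE TRAIL+ and EAE TRAIL-, against 463 and 318 CPM in naive TRAIL+ and naive TRAIL-, and 4 MHC class II genes to 4638 and 6475 CPM against 309 and 1118 CPM in those naive libraries. Of the immediate early genes, 9 of 20 were at least 2-fold lower in EAE TRAIL- than in naive TRAIL-, among them Fos, Jun and Egr1. In EAE TRAIL+ against naive TRAIL+, 1 of 20 (Jund) was. In these comparisons 9.84% and 1.78% of all genes were lower, and the Ptgs2 ratios were 2.46 and 1.24. All 15 microglia markers were detected in the 4 libraries, with sums of 32033 to 39203 CPM. The part of handling, of monocyte RNA and of antigen-presenting state in the ratios of Ptgs2 and Hpgd was not tested. Lists for mast cells, platelets and neutrophils, other known sources of Hpgds, Ptgs1 and Alox5ap, were read as well, and their part in the results was not tested. That for mast cells summed to 5.86 and 23.8 CPM in EAE TRAIL+ and EAE TRAIL- microglia-like cells, against 6.33 and 8 CPM in naive TRAIL+ and naive TRAIL-, that for platelets to 20.4 to 34.0 CPM and that for neutrophils to 370.03 to 379.6 CPM over the 4 libraries.

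Monocyte- and macrophage-like cells combined a monocyte-like cluster led by Chil3, Plac8 and Arg1 with macrophage-like clusters led by Mrc1, Pf4 and Cbr2. The EAE libraries held mostly the first kind (126 of 161 cells in TRAIL+ and 223 of 224 in TRAIL-) and the naive TRAIL+ library mostly the second (120 of 139 cells). Ptgs2 had 542 CPM (475 to 617) in EAE TRAIL+ and 601 CPM (540.4 to 667) in EAE TRAIL- cells of this class, against 168 CPM (119 to 230.2) in naive TRAIL+ and 254 CPM (13 UMIs in 23 cells) in naive TRAIL- cells. Hpgd ran the other way, with 82.2 CPM (57.2 to 114) in EAE TRAIL+ and 6.72 CPM (4 UMIs) in EAE TRAIL-, against 693 CPM (589 to 810.1) in naive TRAIL+. For EAE TRAIL+ over naive TRAIL+, 6 genes passed the minimum and 5 were apart, where 30.7% of all genes were (16.2% higher, 14.5% lower): Ptgs2 was higher (3.23, 2.29 to 4.69), and Ptgs1 (0.466), Hpgds (0.319), Hpgd (0.119) and Ltc4s (0.238) were lower. The lower Ptgs1 stayed past 2-fold in 3 of 11 alternatives (range 0.421 to 0.656). Different clusters fill the class in these libraries, so disease and the kind of cell cannot be told apart in these ratios. The naive TRAIL+ class further carried 10913 CPM of 11 neutrophil markers, against 329 CPM in EAE TRAIL+, and the macrophage-like clusters of naive TRAIL+ carried 231 CPM, so those transcripts lay in the 19 naive TRAIL+ cells of the Chil3 cluster.

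Within the monocyte-like cluster the EAE libraries could be set side by side. Ptgs2 had 610.5 CPM in TRAIL+ and 603 CPM in TRAIL- cells, a ratio of 1.01 (0.852 to 1.20), and Alox5ap 538 CPM and 564 CPM, a ratio of 0.954 (0.795 to 1.14). The Alox5ap levels were above those of microglia-like cells in the same libraries, 290.4 CPM in TRAIL+ and 316 CPM in TRAIL-. Ptgs1 had 69.4 CPM in TRAIL+ and 6.74 CPM in TRAIL- cells, Hpgds 91.6 CPM and 38.7 CPM, and Hpgd 38.8 CPM and 5.05 CPM. The 15 microglia markers moved with these 3 genes, at 28.2% of their level in microglia-like cells in TRAIL+ and 8.95% in TRAIL-; the part of microglial RNA in the difference was not tested. For the whole class, EAE TRAIL+ over EAE TRAIL-, 6 genes passed and 4 were apart (Ptgs1, Hpgds and Hpgd higher, Ptgds lower), where 20.7% of all genes were (11.2% higher, 9.46% lower). The Ptgds of EAE TRAIL- monocyte-like cells came to 39 of 44 UMIs from a single cell.

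The macrophage-like clusters held Hpgd, Hpgds, Alox5ap and Ltc4s at levels near those of microglia-like cells, but less of both cyclooxygenase genes. Ptgs2 had 168 CPM (11 UMIs) in EAE TRAIL+ and 88.0 CPM (16 UMIs) in naive TRAIL+. In microglia-like cells of these libraries Ptgs2 had 329 and 266 CPM, and Ptgs1 377 and 381 CPM. Hpgd had 320.5 CPM in 35 EAE TRAIL+ cells, against 737 CPM in 120 naive TRAIL+ cells, a ratio of 0.435 (0.261 to 0.692). Hpgds had 458 CPM in EAE TRAIL+ against 517 CPM in naive TRAIL+, Ltc4s 153 against 203 CPM and Ptgs1 153 against 192 CPM, with ratios whose intervals include 1. The 15 microglia markers stood at 90.1% of the microglia-like level in these EAE TRAIL+ cells and at 80.6% in the naive TRAIL+ cells. The sum of that list did not set the clusters apart from microglia-like cells. They were named from their leading genes, among them Mrc1, Pf4 and Cbr2.

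Endothelial-like cells were compared between the TRAIL- libraries, since 3 EAE TRAIL+ cells had that class. Ptgs2 had 102 CPM (76.8 to 132; 56 UMIs in 21 of 494 cells) in EAE, against 20.1 CPM (12.6 to 30.4; 22 UMIs in 10 of 1144 cells) in naive, a ratio of 5.07 (3.04 to 8.71). After thinning, 2.83% of EAE and 0.524% of naive endothelial-like cells had a Ptgs2 UMI, beside 0.221% of EAE and 0.2% of naive pericyte-like cells of the same libraries. The difference lay in the larger cluster, led by Itm2a, Slco1a4 and Cldn5, with 119 CPM in EAE against 12.4 CPM in naive, a ratio of 9.56 (4.95 to 20.3). The smaller cluster, led by Gkn3 and Sema3g, known arterial genes, had 11.3 CPM (1 UMI) in EAE against 51.7 CPM (11 UMIs) in naive. The 55 endothelial-like cells of naive TRAIL+ had 0 Ptgs2 UMIs. Of the 9 genes, 5 passed the minimum in this class and 2 were apart, both higher in EAE, where 13.9% of all genes were apart and 5.66% higher. The other was Hpgd, with 12 UMIs in EAE and 8 in naive, 6 of the EAE ones in a single cell, a ratio of 2.99 (1.12 to 8.42); without that cell it was under the minimum. The 15 microglia markers summed to 423 CPM in both libraries, the 12 monocyte markers to 2229 CPM in EAE against 1547 CPM in naive, and the immediate early genes to 33633 CPM in EAE against 40875 CPM in naive. The part of monocyte RNA in the Ptgs2 ratio was not tested.

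Ptges, the inducible prostaglandin E2 synthase, had in pericyte-like cells 79.3 CPM (55.8 to 109; 37 UMIs in 23 of 453 cells) in EAE TRAIL- and 61.7 CPM (40.3 to 90.4; 26 UMIs in 17 of 501 cells) in naive TRAIL-. The ratio was 1.29 (0.758 to 2.21), within counting error. Fibroblast-like cells were few but also held it, with 5 UMIs in 8 EAE TRAIL- cells, 4 in 4 naive TRAIL+ cells and 4 in 29 naive TRAIL- cells (67.9 CPM). Endothelial-like cells had 34.5 CPM in EAE TRAIL-, against 33.8 CPM in naive TRAIL-, a ratio of 1.02 (0.555 to 1.82). Microglia-like cells had 0 UMIs in EAE TRAIL+, 5 in EAE TRAIL-, 4 in naive TRAIL+ and 2 in naive TRAIL-, so Ptges and Ptgs1 were counted in different classes. In pericyte-like cells 2 genes passed the minimum and 1 was apart, lower in EAE, where 13.7% of all genes were apart and 7.2% lower. That gene was Ptgds, with 2 UMIs in EAE against 23 in naive, 9 of them in a single cell. Markers of oligodendrocytes, a source of Ptgds, moved with it: the list of 11 summed to 98.6 CPM in the EAE cells, against 180 CPM in the naive ones, and its part in the difference was not tested.

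Ptgds, the lipocalin-type prostaglandin D2 synthase, had 26791 CPM in oligodendrocyte-like cells of EAE TRAIL- (2082 UMIs, in 32 of 35 cells) and 6610 CPM in those of naive TRAIL- (827 UMIs, in 54 of 75 cells). After thinning, 88.6% of the EAE TRAIL- and 61.3% of the naive TRAIL- cells had a UMI of it. The 35 EAE cells were below the 50 set for a comparison, so no ratio was taken. In choroid plexus-like cells Ptgds had 1138 CPM in EAE TRAIL-, against 1220 CPM in naive TRAIL-, close together. In 29 fibroblast-like cells of naive TRAIL- it reached 27398 CPM, all in 10 cells and 604 of 1613 UMIs in 1 of them. Both prostaglandin D2 synthases were thus counted, mainly in separate classes. Hpgds lay in microglia-like and macrophage-like cells, and Ptgds in oligodendrocyte-, choroid plexus- and fibroblast-like cells.

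Choroid plexus-like cells also held Ltc4s, with 49.5 CPM (21.4 to 97.5; 8 UMIs) in EAE TRAIL- and 87.7 CPM (59.2 to 125; 30 UMIs in 18 of 90 cells) in naive TRAIL-. These were 48.6% and 58.5% of the microglia-like level in the same libraries, where the 15 microglia markers stood at 0.618% and 0.344%. Alox5ap had 0 UMIs in both, set here at a limit of 3 UMIs, and Ptgs1 had 0 and 2. Hpgd had 24.7 CPM (4 UMIs) in EAE TRAIL- and 43.9 CPM (15 UMIs) in naive TRAIL- choroid plexus-like cells. In the naive TRAIL- library 26.8% of all Ltc4s UMIs lay in this class.

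Astrocyte-like cells, the labelled type, could be read in 145 naive TRAIL+ and 34 naive TRAIL- cells. In naive TRAIL+ they had 105 CPM of Ptgs1, 85.8 CPM of Ptgs2 (12 of 18 UMIs in 1 cell), 81.0 CPM of Hpgds, 119 CPM of Hpgd, 71.5 CPM of Alox5ap and 47.7 CPM of Ltc4s. Those were 14.4 to 34.2% of the microglia-like levels in that library, while the 15 microglia markers, all detected, stood at 20.8%. In naive TRAIL-, where the microglia markers stood at 3.69%, Ptgs1 and Ltc4s had 0 UMIs and Hpgds had 5. The part of microglial RNA in the astrocyte-like values was not tested.

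From sums over whole libraries alone, fewer cells of a type and less RNA per cell cannot be told apart; the ratios within microglia-like cells are given above, 1.49 in EAE and 1.14 in naive mice for Ptgs1, TRAIL+ over TRAIL-. Over the libraries, TRAIL+ over TRAIL- in EAE was 5.39 (4.56 to 6.41) for Ptgs1, 4.38 for Hpgds, 5.07 for Ltc4s, 3.59 for Hpgd and 2.85 for Alox5, but 1.14 for Ptgs2 and 1.46 for Alox5ap. In naive mice it was 5.12 for Ptgs1 and also 3.78 for Ptgs2 and 4.40 for Alox5ap. Ptgds and Ptges were lower in TRAIL+, at 0.0298 and 0.0431 in EAE and 0.0781 and 0.148 in naive mice. In EAE 7 of the 9 genes were apart, where 31.6% of all genes were (10.4% higher, 21.1% lower), and in naive mice all 9, where 37.5% were (12.3% higher, 25.2% lower). For EAE over naive, 2 of 8 genes were apart in TRAIL+ (Ptgds 0.331 and Hpgd 0.429, both lower), where 14.6% of all genes were apart and 7.59% lower. In TRAIL- 3 of 9 were apart, where 17.8% were (8.49% higher, 9.32% lower): Ptgs2 (4.88, 4.12 to 5.80) and Alox5ap (3.20, 2.69 to 3.81) were higher and Hpgd (0.403, 0.335 to 0.484) was lower. The EAE TRAIL- library held 224 monocyte- or macrophage-like cells and naive TRAIL- 23.

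**Figure D5:**
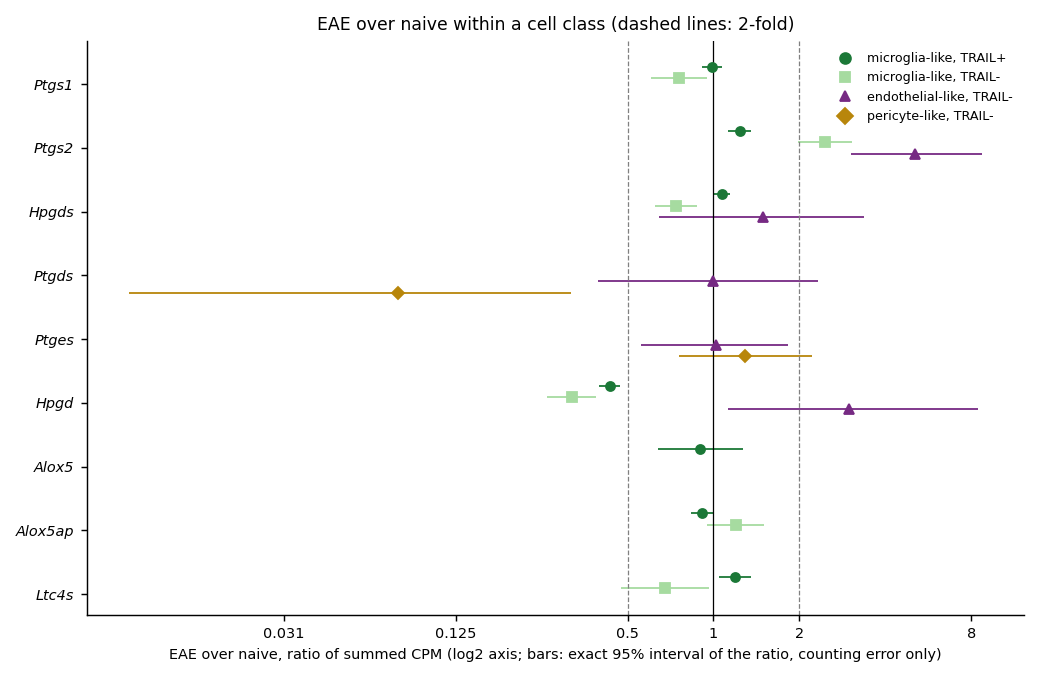
Ratio of EAE over naive for each gene that passed the minimum of 20 UMIs, on a log axis, by class and TRAIL sort, with exact 95% intervals; a ratio above 1 means higher in EAE and the dashed lines mark 2-fold. Hpgd lies past 2-fold lower in microglia-like cells of both sorts (0.433 and 0.32), and Ptgs2 past 2-fold higher in TRAIL- microglia-like (2.46) and endothelial-like cells (5.07).

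The wider pathway was read from 65 further genes in microglia-like cells. For EAE TRAIL+ over naive TRAIL+, 35 passed the minimum, 3 were apart and higher (Pla2g6, Alox12 and Cyp4f18, of which Pla2g6 had 15 UMIs in EAE and 6 in naive) and 0 were lower, with a median log2 ratio of -0.05 beside 0.10 over all genes, of which 10.2% were apart. For EAE TRAIL- over naive TRAIL-, 18 passed, 0 were higher and 2 were lower (Mgll and Ptgr2), where 21.3% of all genes were apart. For EAE TRAIL+ over EAE TRAIL-, 32 passed, 4 were higher and 4 lower, where 14.7% of all genes were apart, and for naive TRAIL+ over naive TRAIL-, 30 passed, 0 were higher and 2 lower, where 12.9% were. Among the higher ones in EAE TRAIL+ over EAE TRAIL- was Dagla, a diacylglycerol lipase, with 30.5 CPM in EAE TRAIL+ against 8.49 CPM in EAE TRAIL-, a ratio of 3.597 (1.49 to 11.3). Upstream of the cyclooxygenases, Pla2g15, a lysosomal phospholipase, had 376 CPM in EAE TRAIL+ against 353 CPM in naive TRAIL+, and Daglb, a diacylglycerol lipase, 203 against 199.8 CPM. Mgll, the monoacylglycerol lipase that frees arachidonic acid in brain, had 95.3 CPM in EAE TRAIL+ against 120 CPM in naive TRAIL+. Among TRAIL- cells it had 56.0 CPM in EAE against 122 CPM in naive, a ratio of 0.459 (0.291 to 0.712). Its highest level was 891 CPM, in naive TRAIL+ astrocyte-like cells. Among other terminal synthases, Tbxas1, thromboxane synthase, had 95 CPM in EAE TRAIL+ against 97.6 CPM in naive TRAIL+, Akr1b3, a prostaglandin F synthase, 109 against 93.2 CPM and Ptges3, the cytosolic prostaglandin E synthase, 154 against 167 CPM. Lta4h, which makes leukotriene B4, had 31.4 against 38.3 CPM, and Cotl1, which binds 5-lipoxygenase, 393 against 447 CPM. Ggt5, which trims leukotriene C4 to D4, had 24.7 CPM in EAE TRAIL+ against 43.3 CPM in naive TRAIL+, a ratio of 0.57 (0.426 to 0.759). Apart from Dagla and Mgll in TRAIL- cells, the ratios of the genes named from Pla2g15 on lay between 0.5 and 2.

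Among breakdown and receptor genes, Ptgr2, a prostaglandin reductase that acts after Hpgd, had 34.2 CPM in EAE TRAIL+ and 10.2 CPM (6 UMIs) in EAE TRAIL-, against 49.3 and 56.0 CPM in naive TRAIL+ and naive TRAIL-. Its ratio was 0.694 (0.538 to 0.894) in TRAIL+ and 0.182 (0.0616 to 0.448) in TRAIL- cells. Ptger4, the EP4 receptor for prostaglandin E2, had 41.0 CPM in EAE TRAIL+ and 110.3 CPM in EAE TRAIL-, against 45.3 CPM in naive TRAIL+ and 58.0 CPM in naive TRAIL-, a TRAIL- ratio of 1.90 (1.21 to 3.06). Ptger3, the EP3 receptor, had 4.93 CPM in EAE TRAIL+ against 7.32 CPM in naive TRAIL+, and Ephx1, an epoxide hydrolase, 12.6 against 13.98 CPM. For Ptger4 the EAE TRAIL+ to EAE TRAIL- ratio of 0.372 (0.274 to 0.508) lay on the same side of 1 as that of Ptgs2. Cysltr1, a receptor for cysteinyl leukotrienes, had 62.9 CPM in EAE TRAIL+ against 57.6 CPM in naive TRAIL+, and Cmklr1, the chemerin receptor, 58.6 against 61.3 CPM. Alox12, which encodes a 12-lipoxygenase, had 12.9 CPM in EAE TRAIL+ against 5.33 CPM in naive TRAIL+, a ratio of 2.43 (1.34 to 4.63), but 0 UMIs in EAE TRAIL- against 4 in naive TRAIL-. Cyp4f18, a leukotriene B4 hydroxylase, had 25 UMIs in EAE TRAIL+ against 3 in naive TRAIL+. Away from microglia, Tbxa2r, the thromboxane receptor, had 373 CPM in pericyte-like cells of EAE TRAIL-, against 289 CPM in those of naive TRAIL-, and Abcc4, which exports prostaglandins, 407 CPM in endothelial-like cells of EAE TRAIL-, against 241 CPM in those of naive TRAIL-. Fpr2, a receptor for formyl peptides and lipoxin A4, had 193 and 233 CPM in monocyte- and macrophage-like cells of EAE TRAIL+ and EAE TRAIL-, against 35.3 CPM in those of naive TRAIL+.

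Over the 18 sums of a class in a library, 10746 genes were ranked by Pearson's r with each of the 9, as a description, since the sums share libraries and depth. P2ry13 (r = 0.983), Capn3 and Tmem119 were nearest to Ptgs1, Fgd2 (0.964), Itga9 and Crybb1 to Hpgds, and Slc2a5 (0.939), Maf and Bco2 to Hpgd. Tnfrsf1b (0.956), Adcy7 and Itgb2 were nearest to Ptgs2, and Clec5a (0.984), Cd48 and Tyrobp to Alox5ap. Pon3 (0.934), Hpgd itself and Slc16a6 were nearest to Ltc4s, and H2-Ob (0.931), Itgb3 and Bid to Alox5. Car14 (0.959), Ppp2r2c and Pcolce2 were nearest to Ptgds, and Grk5 (0.932), Rasgrp2 and Ece1 to Ptges.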

How the data were processed

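Whole-number UMI counts per barcode and gene were deposited by the authors in 1 table per library, from inDrops v3 single-cell libraries per the labels' protocols. The submitters' processing notes name Bowtie and the build GRCm38; for the version and the strand setting the sources used here give nothing. Ptgs1, Hpgds, Ptges, Hpgd, Alox5ap and Ltc4s overlap other annotated genes, which had at most 53 UMIs.

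Of 12987 barcodes, 7899 had at least 500 UMIs and at most 20% mitochondrial UMIs. Scrublet, at an expected rate of 5%, called 77 doublets (0.975%), which were removed. Pairs of libraries shared 22 to 40 barcodes (0.992 to 2.55%), which were kept. Cells were clustered without the 9 genes or the wider pathway (scanpy 1.11.5, 2000 variable genes, 30 components, 15 neighbours, Leiden resolution 1), and the 16 clusters were named from marker lists, so the classes are rebuilt here and carry "like" in their names. A cluster left unnamed at first was ranked again, against cells outside the clusters that already had the name of its best list. The C4b and Gkn3 clusters got their names in this way. Several monocyte-like cells of the naive libraries carried neutrophil markers and kept the cluster's name.

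Levels are summed UMIs per 1e6 UMIs of the class and library, with exact Poisson 95% intervals. Ratios have exact Clopper-Pearson 95% intervals (scipy 1.17.1). Depth was 947 to 1904.5 median UMIs per cell. A count of 0 was set at a limit of 3 counts, which lies below the upper end of its exact Poisson interval. Shares of cells were also taken after thinning each cell to 500 UMIs, which left out 0 cells. Classes were compared with at least 50 cells and 50000 UMIs in both libraries. Groups are single libraries, so no test was run. A ratio of 2 with at least 20 UMIs counted as apart, and the same rule over all genes gave the background.

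The 9 genes and all lists were chosen with earlier results of these data known. All 9 are named, and of the 65 wider genes the 3 with most UMIs per role. Those 2-fold apart on at least 50 UMIs in microglia-like cells, EAE TRAIL+ over naive TRAIL+, are named too. Some others are named where they belong to a count, though not for each count, or by choice after their values were seen. Alternatives tried were TMM (edgeR 4.0.16) and median-of-ratios scaling (DESeq2 1.42.0), other filters on UMIs, mitochondrial share and doublets, other clusterings, other minimums and leaving out the top cell. The summing and ratio steps were checked on simulated data.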

Additional observations from a re-analysis of the deposited data

Results flagged for a closer look

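Hpgds and Ltc4s in microglia-like cells lay on opposite sides of 1 in the 2 sorts when EAE was set against naive. For Hpgds, the prostaglandin D2 synthase, the EAE to naive ratio was 1.07 in TRAIL+ and 0.738 in TRAIL- cells. For Ltc4s, leukotriene C4 synthase, it was 1.19 in TRAIL+ and 0.679 in TRAIL- cells. With 1 library in each group, the difference between the sorts was not tested. With TMM scaling the Hpgds ratio was 0.958 in TRAIL+ cells and with median-of-ratios scaling 0.995, so the sides no longer differed; the Ltc4s ratios stayed at 1.06 to 1.39 in TRAIL+ and 0.648 to 0.753 in TRAIL- cells over the alternatives. Within clusters the Hpgds ratio was 1.22 (1.10 to 1.36) in TRAIL+ and 0.547 (0.329 to 0.873) in TRAIL- cells of the Fcrls cluster, and 1.32 (1.17 to 1.48) in TRAIL+ and 1.06 (0.775 to 1.43) in TRAIL- cells of the Gpr34 cluster. For Ltc4s the sides differed in the Fcrls cluster, at 1.32 (1.08 to 1.60) in TRAIL+ and 0.189 (0.0375 to 0.593; 3 UMIs in EAE and 41 in naive) in TRAIL- cells. They did not in the Gpr34 cluster, at 1.47 (1.16 to 1.87) in TRAIL+ and 1.41 (0.697 to 2.71) in TRAIL- cells.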

How the results depend on the processing

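No paired analysis was possible because each group is 1 library with no replicate number. Of the 36 ratios past 2-fold, 32 stayed so under each alternative run, by the ratio alone and without the 20 UMI minimum. Many of the 36 were taken over whole libraries, where other clusterings cannot change them. Those that did not stay were all ratios within a class. They were Hpgd, EAE over naive, in microglia-like cells of both sorts, and Ptgs2 in TRAIL- microglia-like cells. The last was Ptgs1 in monocyte- and macrophage-like cells, EAE TRAIL+ over naive TRAIL+. Leiden resolution 2 left 921 EAE TRAIL+ and 111 EAE TRAIL- microglia-like cells, against 1614 and 300 at resolution 1. It left 1720 naive TRAIL+ and 294 naive TRAIL- ones, against 1824 and 314. The cells lost were thus mostly EAE ones, so the EAE cells compared were a different set. At that setting 0 genes were apart between EAE and naive in either sort. Hpgd stood at 0.557 in TRAIL+ and 0.575 in TRAIL-, and Ptgs2 at 0.927 in TRAIL+ and 1.61 in TRAIL-. Over all alternatives Hpgd ranged from 0.387 to 0.557 in TRAIL+ and 0.278 to 0.575 in TRAIL-, and Ptgs2 in TRAIL- from 1.61 to 3.03. With no minimum, 2 genes were apart in microglia-like cells in EAE TRAIL+ over naive TRAIL+, in EAE TRAIL+ over EAE TRAIL- and in naive TRAIL+ over naive TRAIL-, and 3 in pericyte-like cells. A minimum of 50 CPM left 1 in monocyte- and macrophage-like cells (EAE TRAIL+ over EAE TRAIL-), 1 in endothelial-like and 0 in pericyte-like cells. The endothelial count was also 1 with 1000 UMIs, a 10% mitochondrial maximum, doublets kept, the 9 genes used for clustering, cells with under 1% own markers left out, or without the top cell: Ptgs2 stayed (4.15 to 5.98) and Hpgd ranged from 2.39 to 4.37, with under 20 UMIs in these. The pericyte count was 2 with 1000 UMIs or doublets kept and 0 without the top cell. TMM and median-of-ratios scaling shifted the median gene by -0.16 and -0.11 (log2) for EAE TRAIL+ over naive TRAIL+ in microglia-like cells. The shifts were 0.21 and 0.18 for EAE TRAIL+ over EAE TRAIL-. They were largest for naive TRAIL+ over naive TRAIL-, at 0.24 and 0.26. Scaling moves all ratios of a comparison alike, so the naive Hpgd ratio of 0.788 moves toward 1 under both. The cause of these moves was not tested. The main limits are 1 library per group, sex that differed with disease, and few cells of several classes.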

Other observations

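Barcodes under the 500 UMI minimum were left out of every comparison. Summed over them, Hpgd had 172 CPM in EAE TRAIL+ and 47.3 CPM in EAE TRAIL-, beside 431 CPM in naive TRAIL+ and 65.9 CPM in naive TRAIL-. Ptgs1 had 302 CPM and 47.3 CPM in EAE TRAIL+ and EAE TRAIL-, beside 299.8 CPM and 44.9 CPM in naive TRAIL+ and naive TRAIL-. Ptgds had 27.8 CPM and 357 CPM in EAE TRAIL+ and EAE TRAIL-, beside 47.8 CPM and 344 CPM in naive TRAIL+ and naive TRAIL-. For Hpgd the libraries came in the same order as in the kept cells.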
